A study of Mus musculus with 175 samples.

Results

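P2+ CMPs were compared with P2- CMPs of the mouse fetal liver at E14.5 (embryonic day 14.5) by single-cell RNA sequencing. CMPs are common myeloid progenitors by surface phenotype, sorted here as lineage-negative, SCA1-, C-KIT+, CD16/32 low, CD34+ cells that were also CD41- and CD150+. Every embryo had the Runx1 reporter genotype P1-GFP::P2-hCD4/+ on a mixed C57BL/6 and ICR background, in which human CD4 on the cell surface marks use of the P2 promoter of Runx1. P2+ cells stained for human CD4 and P2- cells did not. The embryos received no treatment, and no group without the reporter was analysed here. A characteristics label names the genotype P2-GFP::P2-hCD4/+, while the protocol and the study's methods give the name used here. Of the 175 cells in the series 70 were CMPs, chosen by their column names, in which CMP_high was taken as P2+ and CMP_low as P2-. One of the 43 P2+ CMPs was left out because 99.8% of its counted reads lay on the ERCC spike-in RNA and only 765 on mouse genes. This left 42 P2+ CMPs and 27 P2- CMPs. MEPs (megakaryocyte-erythroid progenitors) of the same pool, sorted in the same way but as CD34- cells, served as a reference and comprised 56 P2- and 47 P2+ cells.

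Livers of 2 litters went into 1 pool before sorting. Each sorted population is therefore 1 sample, its cells are not replicates, and no p-value is given. All intervals are at the 95% level and cover counting error only, not the spread between animals. A single P2- CMP has a subtype label that calls it an MEP, against its title and source, and was retained. That cell had 201 reads of Gata1 and 151 of Klf1, together with 527 CPM of Mpo, and 0 reads of Cd34 and Car1.

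Runx1 encodes a DNA-binding subunit of core binding factor, which is needed for blood stem cells to form in the embryo and for platelet and lymphoid maturation afterwards. The gene is transcribed from a distal promoter, P1, and a proximal promoter, P2, and the resulting proteins differ at the amino terminus. The fetal liver is the main blood-forming organ at this stage of gestation and makes large numbers of red cells. In the classical scheme a CMP gives rise either to megakaryocytes and red cells, with GATA1 and KLF1 driving the red cell program, or to granulocytes and monocytes, driven by PU.1 and C/EBP factors.

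The promoters behind the sort and behind Klf1, the erythroid transcription factor gene with the lowest ratio below, are shown as the 250 bases before the start given by RefSeq for GRCm38.p6. The distal Runx1 promoter lies at chr16:92826075-92826324 and the proximal one, which the reporter reads out, at chr16:92697330-92697579, both on the minus strand. The Klf1 promoter lies at chr8:84901732-84901981 on the plus strand. Each sequence runs 5′ to 3′ along the gene, and capitals mark motif matches on either strand, which do not overlap here. The motif searched for GATA factors was AGATAA with its variant TGATAA. For KLF factors it was CACCC. For ETS factors it was GAGGAAG. For RUNX factors it was TGTGGT.
Runx1 P1: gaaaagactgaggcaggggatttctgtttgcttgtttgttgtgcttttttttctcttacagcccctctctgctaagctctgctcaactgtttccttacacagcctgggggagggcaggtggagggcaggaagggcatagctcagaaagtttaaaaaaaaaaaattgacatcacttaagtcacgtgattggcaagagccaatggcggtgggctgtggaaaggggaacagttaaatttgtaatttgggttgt
Runx1 P2: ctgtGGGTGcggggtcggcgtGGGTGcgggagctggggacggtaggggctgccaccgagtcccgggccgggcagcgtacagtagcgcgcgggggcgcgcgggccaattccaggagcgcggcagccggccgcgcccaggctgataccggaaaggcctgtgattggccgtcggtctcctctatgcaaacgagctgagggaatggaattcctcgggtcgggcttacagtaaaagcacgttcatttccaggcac
Klf1: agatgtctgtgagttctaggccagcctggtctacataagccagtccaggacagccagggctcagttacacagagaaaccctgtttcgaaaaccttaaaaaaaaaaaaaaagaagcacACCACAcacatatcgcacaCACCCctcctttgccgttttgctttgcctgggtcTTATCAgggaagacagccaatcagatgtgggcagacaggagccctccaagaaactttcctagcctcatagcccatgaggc
The P1 window held none of these motifs, and the P2 window held 2 KLF matches near its far end. The Klf1 window held a GATA match 80 bases before the start, a KLF match at 114 bases and a RUNX match at 133 bases. These windows end at the RefSeq start, and those of Runx1 P1 and Klf1 reach into the GENCODE genes given below, whose starts differ. Such matches are common. Of 32851 RefSeq promoters of this length 16.6% held the GATA motif, 52.0% the KLF motif, 10.6% the ETS motif and 14.05% the RUNX motif. A match of letters is not a binding site, and binding was not measured.

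The P2+ CMPs were sequenced more deeply. Reads on mouse genes per cell ranged from 387473 to 1540631 (median 804632.5) in P2+ CMPs and from 334625 to 1160112 (median 637603) in P2- CMPs, and summed to 36351033 and 18334696. Mouse reads per ERCC read, which follow the RNA content of a cell, had medians of 56.7 and 45.8 with overlapping ranges (34.5–86.4 and 27.1–80.99). Mitochondrial genes took medians of 3.54% and 4.07% of reads, and the 18S ribosomal RNA gene Rn18s-rs5 10.8% and 8.67%. Ratios were also taken without mitochondrial genes and Rn18s-rs5 in the denominator, and shares of cells with a read at equal depth. Beyond that, the part of these differences in the results was not tested. Levels are given as pooled CPM, the reads of a gene summed over a population per 1000000 mouse reads, in the order P2- then P2+. A gene was taken as read in a cell if it kept a read once all cells had been thinned to 100000 reads.

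Counted genes had a pooled level of at least 10 CPM and reads, before thinning, in no less than 25% of cells in either population. Of these 8607 genes 3.15% were at least 2-fold higher in P2+ CMPs and 2.61% at least 2-fold lower. The fold had to hold also without the cell of highest CPM in the higher population, and genes that met this are called past the fold. The log2 ratio (P2+ over P2-) had a median of -0.03 over all 8607 genes, with a ratio above 0 in 4087 of them, and this median stayed between -0.03 and 0.03 under every scaling tried. The plot of pooled levels shows Trib2, Slc45a3 and Klf1 well below the diagonal, and Runx1 and Cd34 close above it.

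**Figure D1:**
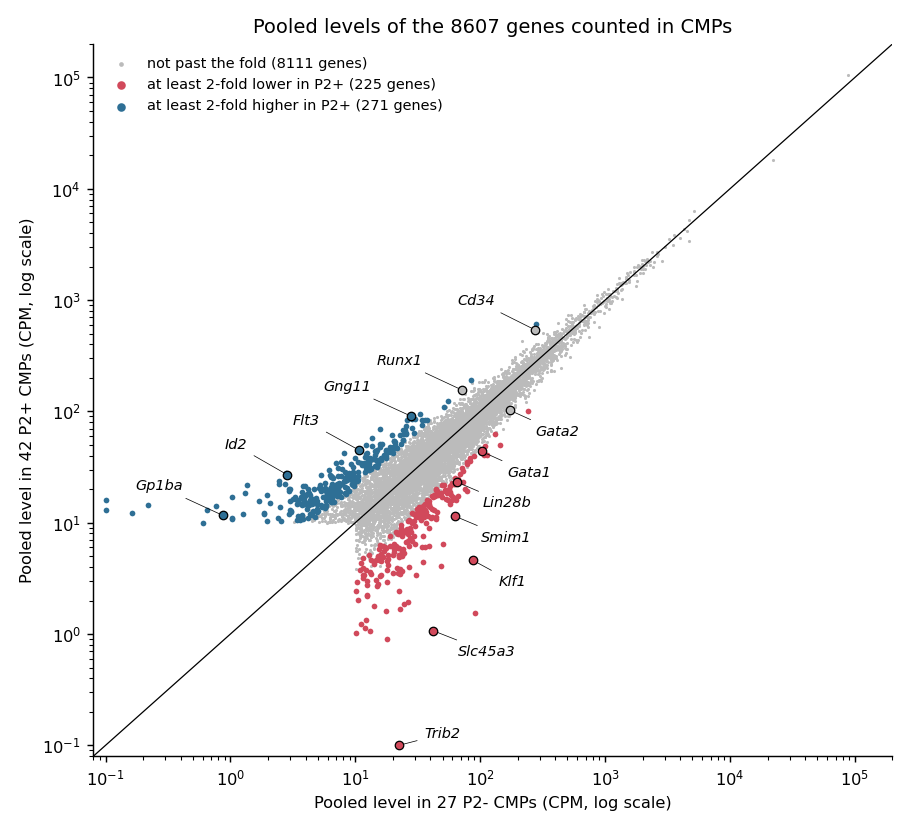
Pooled level of the 8607 genes counted, in 27 P2- CMPs (x axis) and 42 P2+ CMPs (y axis), in CPM on log scales, with genes past the fold in colour and levels under 0.1 CPM drawn at 0.1. Outlined points are the genes named in the plot, of which Runx1, Cd34 and Gata2 are not past the fold. Klf1 (87.4 and 4.59 CPM) and Trib2 (22.4 and 0 CPM) lie below the diagonal, and Flt3, Id2 and Gp1ba above it.

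Runx1 itself, at chr16:92601466-92826149, was higher in P2+ CMPs by about the fold. In single P2- CMPs it ranged over 0–165 CPM with a median of 77.2, and in single P2+ CMPs over 4.41–629 CPM with a median of 133. Of the 42 P2+ CMPs 15 lay above all P2- CMPs, and 3 P2- CMPs lay below all P2+ CMPs. Pooled levels were 71.5 CPM (67.7–75.5) and 156 CPM (152–159.8). The log2 ratio of 1.12 (1.04 to 1.21) became 0.96 without the P2+ CMP of highest level, so Runx1 is not past the fold. Reads of Runx1 were found in 21 of 27 and 40 of 42 cells. Counts are per gene, so P1 and P2 transcripts cannot be told apart.

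Of 10 genes for the RUNX family and its cofactors 9 were counted and 0 were past the fold, with a median log2 ratio of 0.17 (0.09 to 0.19 under other scalings or with cells left out). Cbfb, the subunit shared by all RUNX proteins, had a log2 ratio of 0.36 (0.26 to 0.45). Runx2, known from bone, had 0.33 (0.13 to 0.53), and Runx3, known from lymphocytes, -0.43 (-0.53 to -0.32). Without the highest cell of each these became 0.11 and -0.20. Cbfa2t3, the corepressor ETO2, had the lowest ratio of the list, -0.55 (-0.61 to -0.49).

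Genes of the sort markers were checked first. Cd34 was read in 22 of 27 P2- and 40 of 42 P2+ CMPs, against 0 of 56 and 5 of 47 MEPs, which were sorted as CD34-. Per cell it ranged over 0–873 CPM (median 243.97) and 0–1170.4 CPM (median 432). Above all P2- CMPs lay 8 P2+ CMPs, and the pooled log2 ratio of 0.98 (0.93 to 1.02) lay just under the fold. Kit, the stem cell factor receptor gene, was read in 27 of 27 and 39 of 42 cells, with a ratio of -0.51 (-0.56 to -0.47). Slamf1, the CD150 gene, was read in 12 and 20 cells, with a ratio of 0.90 (0.77 to 1.02). Itga2b, the gene of CD41, which was sorted against, was read in 10 and 19 cells, and its ratio of 0.29 became -0.05 without the P2+ CMP that held 22.1% of its reads there. Ly6a, the SCA1 gene, had 0 reads in P2- CMPs and was read in 3 P2+ CMPs.

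Of 23 genes of the sort and of the antibody screen 14 were counted and 0 were past the fold, with a median of 0.09 (0.04 to 0.20 under the alternatives). Cd48 was at 316.6 and 505 CPM, a ratio of 0.67 (0.63 to 0.72). Spn, the CD43 gene, was at 64.8 and 30.4 CPM, and its ratio of -1.09 became -0.91 without 1 cell. Pecam1, the CD31 gene, was read in 11 of 27 and 10 of 42 cells, and its ratio turned from -0.26 to 0.17 without the P2- CMP that held 28.4% of its reads there, so no direction is given for it.

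Most erythroid transcription factor genes had a lower pooled level in P2+ CMPs. Of 22 listed for the erythroid and megakaryocyte-erythroid program 20 were counted, 19 of them had a log2 ratio below 0, and 2 were past the fold, Klf1 and Gata1, both lower. The median of the 20 was -0.65 (-0.65 to -0.49 under the alternatives, which changed the scaling or left out cells), against -0.03 over all genes. Klf1, which activates globin, membrane and heme genes, lies at chr8:84901928-84905291 in GENCODE. Per cell it ranged over 0–343.7 CPM in P2- CMPs (median 7.53) and over 0–160.3 CPM in P2+ CMPs (median 0). Klf1 was read in 14 of 27 P2- CMPs (51.9%, 31.9–71.3%) and 2 of 42 P2+ CMPs (4.76%, 0.582–16.2%). Nearly all P2+ CMPs thus lay at 0, where 13 of the P2- CMPs also lay. Pooled levels were 87.4 CPM (83.1–91.8) and 4.59 CPM (3.92–5.35), a log2 ratio of -4.25 (-4.49 to -4.02), and 82.6% of the P2+ reads lay in 1 cell.

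Gata1, the master regulator of the red cell and platelet lineages, lies at chrX:7959260-7978071 and showed another pattern of cells. Gata1 was read in 15 of 27 P2- and 19 of 42 P2+ CMPs, so 17 P2+ CMPs had Gata1 reads but none of Klf1. Per cell it ranged over 0–426 CPM (median 51.7) and 0–279.5 CPM (median 0), and 5 P2- CMPs lay above all P2+ CMPs. Pooled levels were 103 CPM (98.2–108) and 43.6 CPM (41.5–45.8), with a log2 ratio of -1.24 (-1.33 to -1.14).

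Genes of proteins that join GATA1 in complexes had ratios below 0 short of the fold. Lmo2 had a log2 ratio of -0.87 (-0.91 to -0.82), Ldb1 -0.88, Zfpm1 (FOG1) -0.85 and Tal1 -0.62. Gata2, the factor that GATA1 replaces as red cells mature, had -0.77 (-0.84 to -0.70). Gfi1b, a repressor needed in both red cells and platelets, was the 1 of the 20 above 0, at 0.18 (0.09 to 0.27), and at 0.09 without its highest cell. Cited2, a transcriptional coactivator gene of the list, was at -0.06, and at 0.08 without its highest cell. E2f2, a cell cycle factor of red cell precursors, was at 26.5 and 11.7 CPM, but its ratio of -1.18 shrank to -0.32 without the P2- CMP that held 46.5% of its reads there.

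**Figure D2:**
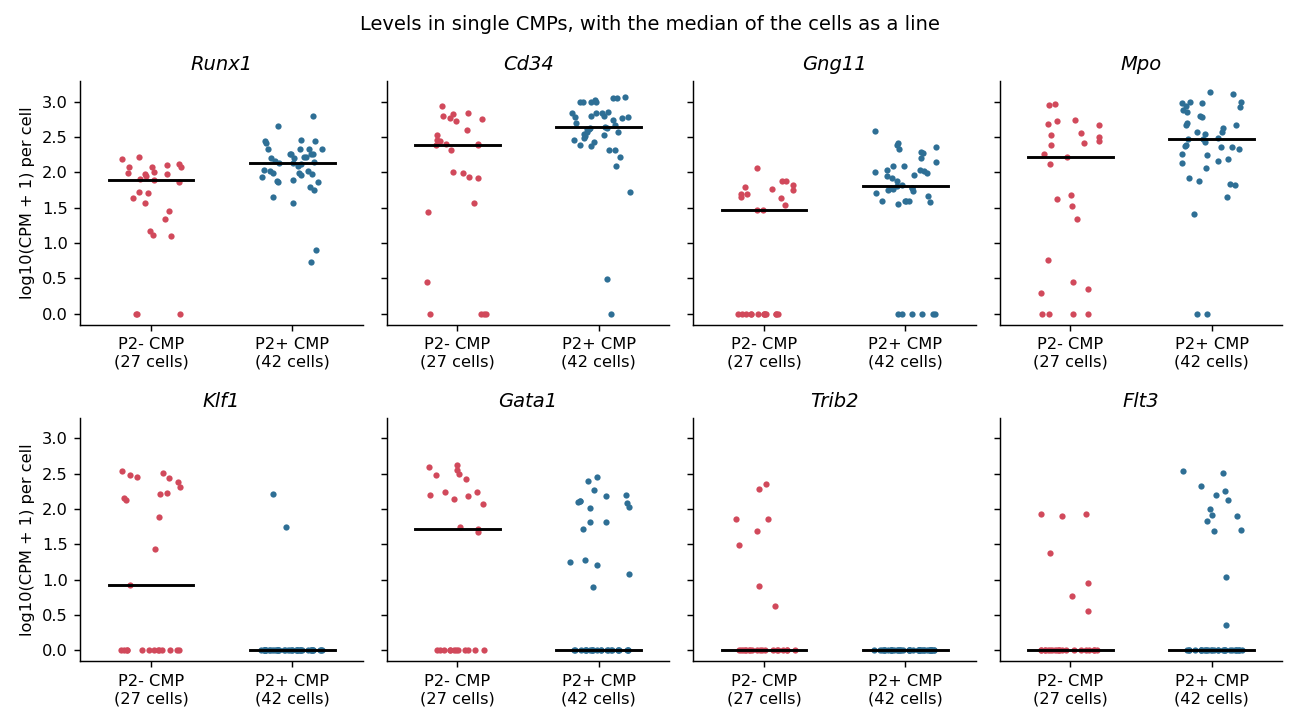
Level of 8 genes in each CMP, as log10(CPM + 1), with each point a cell and the line the median of the cells. Of 42 P2+ CMPs 15 lie above all P2- CMPs for Runx1, 8 for Cd34, 11 for Gng11 and 6 for Mpo, whereas Klf1 was read in 14 of 27 P2- CMPs and 2 of 42 P2+ CMPs, and Trib2 in 8 and 0.

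Heme and iron genes followed. Of 16 heme synthesis genes 14 were counted, 10 with a ratio below 0, and the median was -0.37 (-0.37 to -0.18 under the alternatives, the latter without the cell of highest CPM). Cpox, a mitochondrial enzyme gene of the later pathway, was the 1 past the fold, at 66.7 and 24.9 CPM (-1.42, -1.55 to -1.30), and was read in 16 of 27 and 20 of 42 cells. Of 15 iron uptake and storage genes 14 were counted, 10 with a ratio below 0, and the median was -0.25 (-0.28 to -0.13 under the alternatives). Steap3, the gene of the iron reductase of endosomes, was the 1 past the fold, at 40.2 and 11.1 CPM (-1.86, -2.04 to -1.68). Tfrc, the transferrin receptor gene, was at 49.3 and 23.1 CPM, and its ratio of -1.09 became -0.98 without its highest cell. The ferritin genes Fth1 (-0.19) and Ftl1 (0.17) were near 0, and Ftl1 shares 34.6% of its exon length with other genes.

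Most red cell membrane and blood group genes had too few reads in CMPs to be counted. Of 27 such genes 11 were counted, with a median of 0.01 (0.01 to 0.07 under the alternatives), and 2 were past the fold, both lower. Smim1, which sets the Vel blood group, was at 63.2 and 11.4 CPM (-2.47, -2.63 to -2.30) and shares 18.1% of its exon length with other genes. Art4, which carries the Dombrock blood group, was at 27.7 and 8.89 CPM (-1.64, -1.84 to -1.43). Ermap and Kel were read in 3 and 4 P2- CMPs and had 0 reads in P2+ CMPs. Set against 3 reads over all P2+ CMPs, they were at least 97.1-fold and 87.2-fold lower there, although 1 cell held 67.3% and 41.7% of their reads.

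Of 8 globin genes only Hbb-bt, a beta globin gene, was counted, and its reads may be split with its near-identical neighbour Hbb-bs. It was read in more P2+ CMPs, 32 of 42 against 15 of 27 P2- CMPs, while its pooled level was lower there, 121 against 232.2 CPM. A single P2- CMP held 28.5% of the reads of its population, and the log2 ratio of -0.95 became -0.53 without it.

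Megakaryocyte genes were read in both populations. Of 36 megakaryocyte and platelet genes 20 were counted, 14 with a ratio above 0, and 2 were past the fold, both higher in P2+ CMPs. The median log2 ratio was 0.22, and 0.10 without the cell of highest CPM or 0.36 with DESeq2 size factors.

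Both genes past the fold encode platelet proteins. Gp1ba, a chain of the receptor for von Willebrand factor, was at 0.873 CPM (0.499–1.42) in P2- CMPs and 11.6 CPM (10.5–12.8) in P2+ CMPs, with a ratio of 3.73 (3.02 to 4.55), or 3.09 with the same weight for every cell. Before thinning it had reads in 2 of 27 and 12 of 42 cells, and after it in 2 and 9. Gng11, a G protein subunit gene, ranged over 0–113 CPM per P2- CMP (median 28.4) and 0–381.6 CPM per P2+ CMP (median 63.8). Above all P2- CMPs lay 11 P2+ CMPs. Reads of Gng11 were found in 13 of 27 and 36 of 42 cells, and the pooled ratio was 1.69 (1.56 to 1.83). Treml1, a receptor gene of platelet granules, was at 23.8 and 50.6 CPM, a ratio of 1.09 that fell just short of the fold without its highest cell. Gp9, another chain of the von Willebrand factor receptor complex, was read in 13 and 21 cells, with a ratio of 0.08 (-0.05 to 0.21) that became -0.02 without its highest cell. Pf4, a platelet chemokine gene, was read in only 2 and 5 cells. Vamp5, a vesicle protein gene of this list, was lower, at 370.7 and 229.4 CPM (-0.69, -0.74 to -0.65), without reaching the fold.

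Most of the counted granulocyte and monocyte genes had a higher pooled level in P2+ CMPs. Of 43 genes 21 were counted, 18 with a ratio above 0, and the median was 0.41 (0.38 to 0.52 under the alternatives), but only 1 was past the fold. This was Cd52, a small surface glycoprotein gene of leukocytes, at 11.7 and 34.1 CPM (1.54, 1.33 to 1.76), which shares 14.5% of its exon length with other genes. Mpo, the myeloperoxidase gene of granule-forming progenitors, ranged over 0–925 CPM per P2- CMP (median 164) and 0–1368 CPM per P2+ CMP (median 294.8). Mpo was read in 20 of 27 and 40 of 42 CMPs, against 3 of 56 and 7 of 47 MEPs. Its pooled ratio was 0.99 (0.94 to 1.04), just under the fold, and it shares 14.95% of its exon length with other genes.

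Other genes of this list lay below the fold or rested on few cells. Csf2rb, the shared beta chain of the GM-CSF receptor, had a ratio of 0.99 (0.87 to 1.11), Csf3r, the G-CSF receptor gene, 0.59 (0.45 to 0.72), and Prtn3, a granule protease gene, 0.44 (0.34 to 0.53). Irf8, a factor of monocytes and dendritic cells, had 0.31 (0.13 to 0.50), or 0.12 without its highest cell, and was read in 4 of 27 and 14 of 42 cells. Nkg7, a granule membrane protein gene, was at 17.6 and 36.4 CPM, and its ratio of 1.05 shrank to 0.40 without the P2+ CMP that held 37.6% of its reads there. The later granule protease genes were almost unread, with 2 and 23 reads of Elane and 2 and 3 of Ctsg.

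Stem and multipotent progenitor genes were mostly counted, 31 of 34. Of these 23 had a ratio above 0 and 3 were past the fold, all higher in P2+ CMPs, with a median of 0.31, and 0.17 without the cell of highest CPM. Flt3, the receptor tyrosine kinase gene of lymphoid-primed progenitors, lies at chr5:147330741-147400489. Per cell it ranged over 0–85.4 CPM in P2- CMPs and 0–340.9 CPM in P2+ CMPs, with a median of 0 in both. Flt3 was read in 6 of 27 P2- CMPs (22.2%, 8.62–42.3%) and 12 of 42 P2+ CMPs (28.6%, 15.7–44.6%). Pooled levels were 10.7 CPM (9.30–12.4) and 44.8 CPM (42.7–47.04). The log2 ratio was 2.06 (1.85 to 2.28), and 1.68 without the P2+ CMP that held 25.5% of the reads.

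The others past the fold were Cd27, a receptor gene of the TNF family, and Sox4, a transcription factor gene of early progenitors. Cd27 was read in 9 of 27 and 28 of 42 cells, at 37.5 and 83.99 CPM (1.16, 1.04 to 1.28). Sox4 was read in 11 and 28 cells, at 17.6 and 38.05 CPM (1.11, 0.93 to 1.29), and shares 54.6% of its exon length with other genes. Mycn, a relative of Myc, was read in 17 and 40 cells, with a ratio of 0.85 (0.78 to 0.93). Esam, an adhesion gene of stem cells and endothelium, differed more in cells than in level. It was read in 9 of 27 (33.3%, 16.5–53.96%) and 32 of 42 cells (76.2%, 60.5–87.9%), with a pooled ratio of 0.79 (0.71 to 0.88) and highest cells of 458 and 488 CPM. The stem cell factor genes Hlf and Mecom had ratios of 0.25 and -0.13, which became 0.11 and 0.17 without the highest cell of each.

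Of 8 endothelial markers 4 were counted, 3 with a ratio above 0 and 1 below, with a median of 0.79 (0.63 to 0.87 under the alternatives). Past the fold were 2 of the 4, both higher in P2+ CMPs, as were 3.15% of all genes counted. With so few genes the shares are hard to compare. Ramp2, another of the 8, was read in 6 of 27 and 10 of 42 cells. Sox18, a transcription factor gene of endothelium, was at 12.1 and 41.7 CPM (1.78, 1.58 to 1.99) and was read in 3 of 27 and 18 of 42 cells. Emcn, the endomucin gene, was at 25.6 and 63.7 CPM (1.31, 1.17 to 1.46) and was read in 7 and 22 cells. Both had 0 reads in MEPs of either kind. The sum of the 8 markers ranged over 0–887 CPM per P2- CMP (median 137.6) and 0–1892 CPM per P2+ CMP (median 237.2). The defining endothelial genes Cdh5 and Kdr were each read in 1 P2- and 1 P2+ CMP, and Lyve1 was at 0 in both populations. Of the 18 P2+ CMPs with Sox18 reads, 16 had reads of the leukocyte gene Ptprc, 18 of Mpo, 1 of Kdr and 1 of Cdh5. In the 24 without Sox18 reads these numbers were 23, 22, 0 and 0.

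None of 12 macrophage and none of 11 hepatocyte markers was counted. Adgre1, C1qa, C1qb, C1qc and Cd5l were at 0 in all CMPs, and 8 macrophage markers were at 0 in P2- and 9 in P2+ CMPs. The macrophage sum had a median of 0 in both populations and a highest cell of 84.0 and 143 CPM. For hepatocyte markers, 6 and 8 of which were at 0, the median was also 0 and the highest cell 326.003 and 84.5 CPM. Of 22 lymphoid genes 15 were at 0 in each population, among them Il7r, Rag1, Rag2, Ebf1 and Pax5. The sum of these 22 ranged over 0–474 CPM (median 117) and 0–567 CPM (median 122). Of them 4 were counted and 1 was past the fold, Satb1, a chromatin organizer of lymphoid progenitors, at 9.87 and 24.5 CPM (1.31, 1.08 to 1.55).

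Of 16 mast cell and basophil genes 3 were counted. Il1rl1, the interleukin 33 receptor gene, was past the fold and lower, at 14.8 and 2.70 CPM (-2.46, -2.81 to -2.12), and was read in 4 of 27 and 2 of 42 cells. Cpa3, a mast cell protease gene also read in early progenitors, was at 72.7 and 34.2 CPM in 9 and 7 cells, and its ratio of -1.09 became -0.90 without its highest cell. Srgn, a granule proteoglycan gene of many blood cells, had 0.17. The mast cell proteases Cma1, Mcpt4, Tpsab1 and Tpsb2 and the receptor gene Fcer1a were at 0 in all CMPs, with 9 and 10 of the 16 at 0. The sum of the 16 ranged over 62.2–1489 CPM (median 505) and 151–1140 CPM (median 527).

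Of 40 cytokine and growth factor receptor genes 29 were counted, with a median of 0.00 (-0.02 to 0.03 under the alternatives). Flt3 was past the fold and higher, and Il1rl1 and Il6st were past it and lower. Il6st, the gp130 chain used by interleukin 6 and related cytokines, was at 27.5 and 8.86 CPM (-1.63, -1.84 to -1.43), and 1 P2- CMP held 32.3% of its reads there. Epor, the erythropoietin receptor gene, was at 50.2 and 22.8 CPM, and its ratio of -1.14 became -0.86 without 1 cell. Tgfbr2, a receptor gene for TGF-beta, had -1.29, and -0.78 without the P2- CMP that held 32.95% of its reads there. Il11ra1, the interleukin 11 receptor gene, had 0.95 (0.78 to 1.13).

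Genes of DNA replication and mitosis did not reach the fold. The median log2 ratio was 0.20 for DNA replication genes, of which 19 of 20 were counted, and -0.15 for mitosis genes, all 20 of which were counted, and 0 of either list were past the fold. Under the alternatives these medians were 0.13 to 0.27 and -0.18 to -0.06. The highest ratio among replication genes was that of Tyms, the thymidylate synthase gene (0.70, 0.64 to 0.75). The lowest among mitosis genes was that of Ccnb1, a cyclin of mitotic entry (-0.73, -0.79 to -0.67). Of 16 genes for cyclins, cell cycle inhibitors and related regulators 12 were counted, with a median of 0.03 (0.03 to 0.16 under the alternatives), and 1 was past the fold, Trib2.

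Trib2 encodes a pseudokinase that promotes degradation of C/EBP-alpha, and lies at chr12:15791727-15816922. It was read in 8 of 27 P2- CMPs, at up to 224.8 CPM, and had 0 reads in 42 P2+ CMPs. Taking 3 cells as the most that a count of 0 allows, up to 7.14% of P2+ CMPs could have reads at this depth, and the limit is on cells with a read, not on cells that express the gene. The pooled level was 22.4 CPM (20.2–24.6) in P2- CMPs and at least 270.96-fold lower in P2+ CMPs, set against 3 reads over the population. Of its P2- reads 48.0% lay in 1 cell. In MEPs it was at 32.7 and 30.2 CPM, a ratio of -0.12.

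Among smaller lists, 8 of 12 fetal program genes were counted, with a median of -0.18 that turned to 0.02 without the cell of highest CPM, and 1 was past the fold. Lin28b, an RNA-binding protein gene that keeps progenitors in a fetal state, was at 65.2 and 23.2 CPM (-1.49, -1.62 to -1.37) and was read in 16 of 27 and 19 of 42 cells. Hmga2, a chromatin protein gene of fetal stem cells, had -0.20 (-0.26 to -0.15), or -0.10 without its highest cell. Of 24 immediate early and stress genes 18 were counted, with a median of -0.16 (-0.33 to -0.07 under the alternatives), and Nr4a2, a nuclear receptor gene, was past the fold and lower, at 14.6 and 4.65 CPM (-1.65, -1.94 to -1.37). Fos (0.31, or 0.16 without its highest cell), Egr1 (0.61) and Jun (-0.58) were not. Of 19 MHC and interferon response genes 13 were counted, 12 with a ratio above 0 and 0 past the fold, with a median of 0.39. H2-K1, an MHC class I gene with near-identical relatives, had a ratio of 0.57 (0.51 to 0.64).

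**Figure D3:**
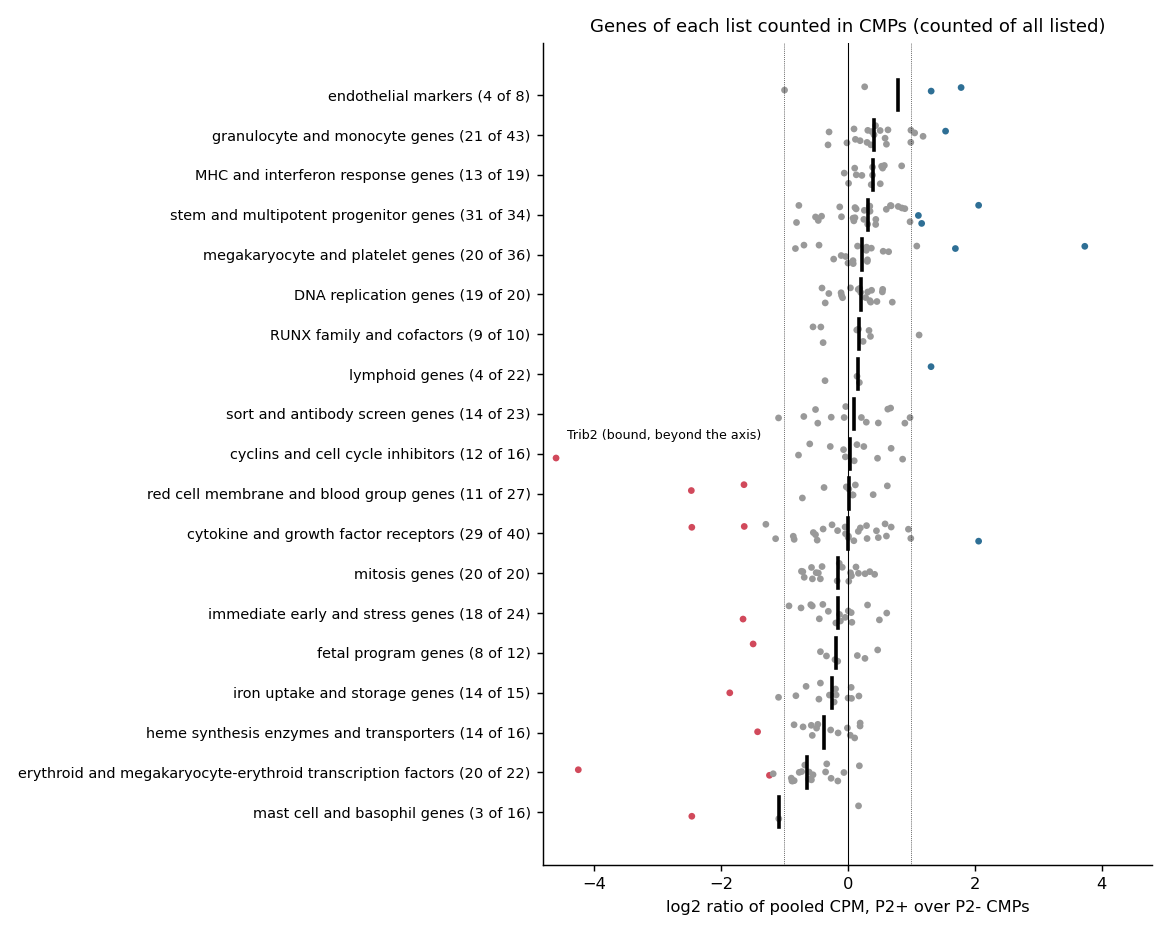
Log2 ratio of pooled CPM (P2+ over P2- CMPs) of the counted genes of each list, with coloured points past the fold of 2 (dotted lines) and the black bar the median of the list. The erythroid transcription factor genes centre at -0.65 and the granulocyte and monocyte genes at 0.41, and Trib2, a bound, is drawn at the left edge.

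Marker genes were next summed within each cell. For the erythroid set of 5 (Gata1, Klf1, Epor, Car1 and Ermap) the sum ranged over 0–1518 CPM per P2- CMP (median 143) and 0–438 CPM per P2+ CMP (median 17.4). The populations overlapped, but 7 P2- CMPs lay above all P2+ CMPs. P2- MEPs lay higher, at 790–2098 CPM (median 1338). At least 3 of the 5 markers were read in 11 of 27 P2- and 2 of 42 P2+ CMPs, and none of them in 8 and 17 cells.

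The granulocyte-monocyte set (Mpo, Elane, Prtn3, Ctsg, Cebpa and Csf1r) ranged over 0–1026 CPM per P2- CMP (median 280.9) and 67.4–1520 CPM per P2+ CMP (median 350.8). The multipotent set (Cd34, Flt3, Hlf and Mecom) ranged over 0–1049 CPM (median 294.1) and 0–1434 CPM (median 566). Both overlapped widely, with 8 P2- CMPs below all P2+ CMPs in the former and 10 P2+ CMPs above all P2- CMPs in the latter. Much of the multipotent sum was Cd34, the gene of a sort marker. In the cell of highest sum Cd34 made 659 of 1049 CPM in P2- CMPs and 1170 of 1434 CPM in P2+ CMPs. A marker of the granulocyte-monocyte set was read in 42 of 42 P2+ and 22 of 27 P2- CMPs. Markers of this set and of the erythroid set were read together in 25 of 42 P2+ and 15 of 27 P2- CMPs, and erythroid markers without any of this set in 0 and 4 cells.

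Across cells the erythroid and multipotent sums ran in opposite directions. Spearman's rho was -0.77 over 27 P2- CMPs and -0.63 over 42 P2+ CMPs. Between the erythroid and granulocyte-monocyte sums it was -0.39 and -0.46. These are descriptions of cells from 1 pool, and the sums of a cell share its library and its depth. Cd34 makes up much of the multipotent sum, so the rho with that sum does not weigh its 4 genes alike.

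**Figure D4:**
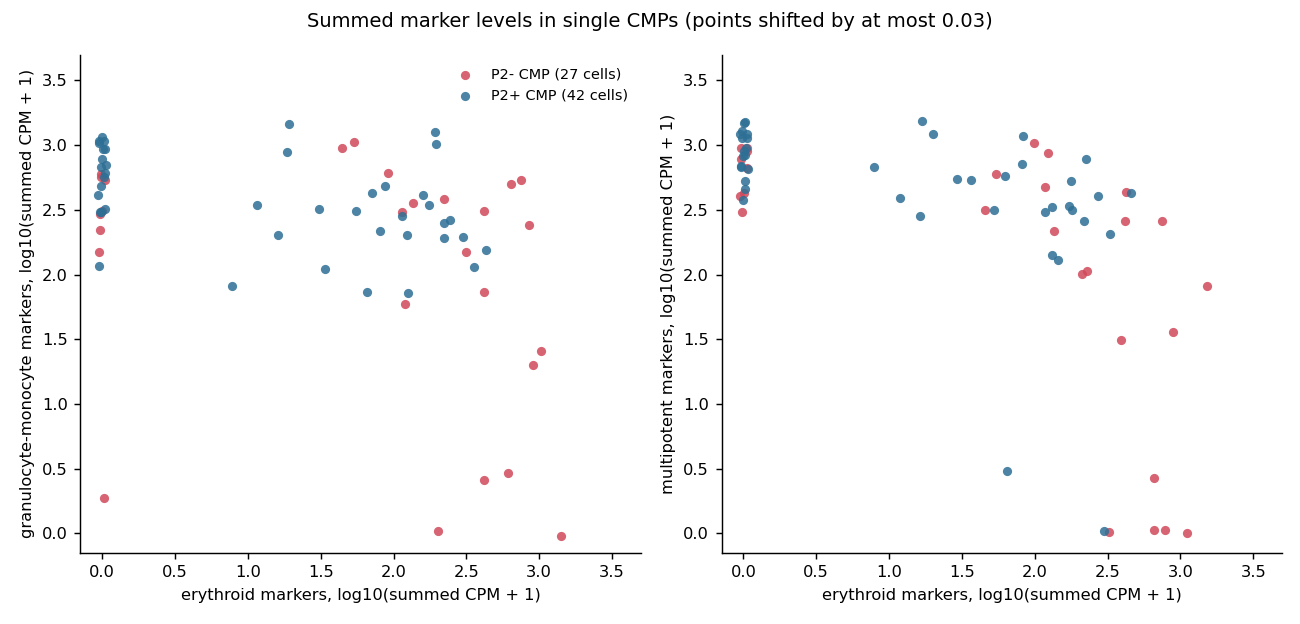
Summed level of erythroid markers (x axis) against granulocyte-monocyte markers (left) and multipotent markers (right) in each CMP, as log10(summed CPM + 1). The 7 cells with the highest erythroid sums are P2- CMPs.

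Some genes with the lowest ratios were read in the same P2- CMPs as Klf1. All 8 P2- CMPs with Trib2 reads had Klf1 reads, as did all 8 with Slc45a3, all 8 with Tnfaip2 and all 6 with Car1, the carbonic anhydrase gene of early red cells. Slc45a3, a sugar transporter gene, was at 41.8 and 1.07 CPM (-5.29, -5.79 to -4.82). All of its P2+ reads lay in 1 cell, and its ratio was -6.33 with the same weight for every cell. Tnfaip2, a gene induced by TNF, was at 34.8 and 4.46 CPM (-2.96, -3.22 to -2.71), a ratio that became -2.07 without the P2- CMP that held 47.96% of its reads there. Anxa2, an annexin gene, was at 30.5 and 3.38 CPM (-3.17, -3.47 to -2.89), and 6 of its 7 positive P2- CMPs had Klf1 reads. Gm15915 was at 90.6 and 1.54 CPM (-5.88, -6.29 to -5.49), and 10 of its 11 positive P2- CMPs had Klf1 reads. Of the 14 P2- CMPs with Klf1 reads 13 had Gata1, 12 Cpox, 12 Smim1 and 11 Steap3.

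A few other genes with low ratios were read mostly in the 13 of 27 P2- CMPs without Klf1 reads. Zfhx3, a homeobox factor gene, was at 26.8 and 4.02 CPM (-2.74, -3.02 to -2.47), and 6 of its 9 positive P2- CMPs had no Klf1 reads. This held for 7 of 10 with Zfp952, a zinc finger gene (-3.71, -4.10 to -3.34), for 6 of 7 with Tbc1d8 (-2.70) and for 4 of 5 with Nicn1 (-2.70). Cyth3, an exchange factor gene for ARF GTPases, was at 48.4 and 4.10 CPM (-3.56, -3.82 to -3.31) and was read in 9 P2- CMPs with and 7 without Klf1 reads. The rest of the 15 genes with the lowest ratios also leaned to cells with Klf1 reads. These were Igsf3 (5 of 7 positive P2- CMPs), Fam46a (7 of 10), Ssx2ip (9 of 14) and Zfp507 (4 of 7). In MEPs Tnfaip2 was at 294.5 and 88.5 CPM and Zfhx3 at 0.0327 and 1.71 CPM.

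The Klf1-positive P2- CMPs carried reads of other programs too. Of these 14 cells 11 had Runx1, 9 Mpo, 9 Cd34 and 2 Flt3. Of the 13 P2- CMPs without Klf1 reads 10 had Runx1, 11 Mpo, 13 Cd34 and 4 Flt3. Both P2+ CMPs with Klf1 reads had Gata1, Epor, Cd34 and Runx1. The one with more Klf1, at 160 CPM, had 124 CPM of Gata1 and 203 CPM of Cd34, and 0 reads of Car1 and Ermap.

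P2+ CMPs were also split by reads of Flt3. Of the 12 with Flt3 reads 11 had Cd27, 9 Satb1, 9 Cd52, 9 Csf3r, 9 Sox18, 2 Gata1 and 1 Slamf1. Of the 30 without Flt3 reads 17 had Cd27, 5 Satb1, 8 Cd52, 14 Csf3r, 9 Sox18, 17 Gata1 and 19 Slamf1. In the same order Cd34 was read in 12 and 28 cells, Mpo in 12 and 28, Emcn in 7 and 15, Il12a in 8 and 18, Irf8 in 4 and 10, Nkg7 in 5 and 6, and Klf1 in 0 and 2.

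**Figure D5:**
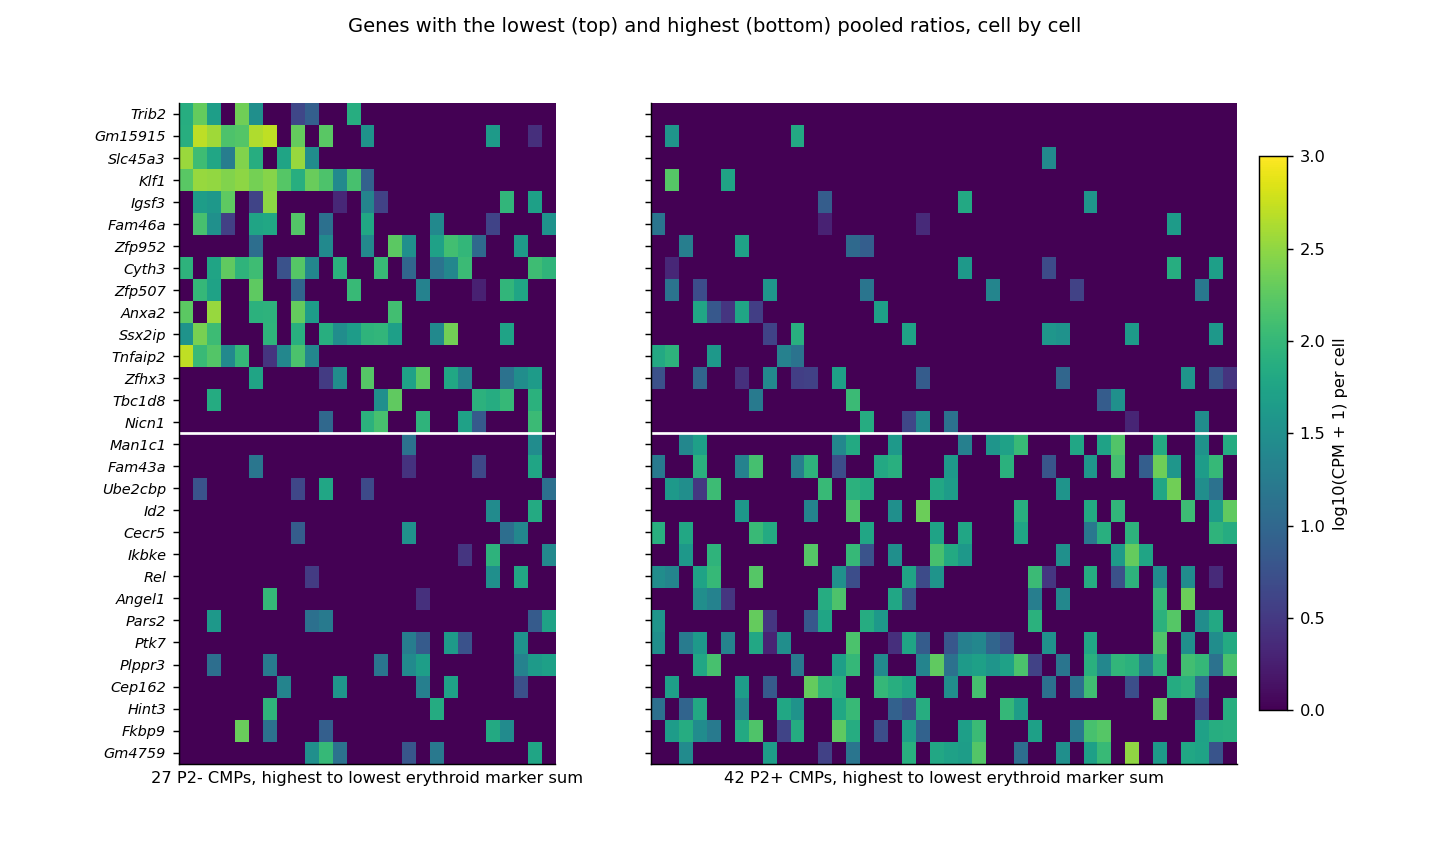
Level of the 15 genes with the lowest ratios (above the white line) and the 15 with the highest (below it) in each CMP, as log10(CPM + 1), with cells ordered by their summed erythroid markers. Klf1 and Trib2 have reads in 14 and 8 of 27 P2- CMPs, and Id2 and Man1c1 in 11 and 15 of 42 P2+ CMPs, all counted before thinning.

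Several of the 15 genes with the highest ratios were read in a minority of P2+ CMPs and in few P2- CMPs. Man1c1, a Golgi mannosidase gene, had the highest ratio among those at 20 CPM or more, at 1.36 and 22.01 CPM (4.01, 3.44 to 4.65), and was read in 1 of 27 and 14 of 42 cells. Id2, which inhibits E proteins and acts in innate lymphoid cells, was at 2.84 and 27.1 CPM (3.25, 2.85 to 3.69), in 2 and 11 cells. Ikbke, a kinase gene of innate immune signalling, was at 2.73 and 22.3 CPM (3.03, 2.62 to 3.47). Rel, a subunit of NF-kappaB, was at 2.95 and 20.03 CPM (2.77, 2.37 to 3.19). Ptk7, a pseudokinase gene of WNT signalling, was at 3.98 and 21.4 CPM (2.43, 2.08 to 2.79). Fam43a and Cecr5 had ratios of 3.34 and 3.19. The P2- levels of these genes rest on at most 73 reads each.

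Other genes were named for their difference in the share of cells with a read, which is therefore a description. Coro2a, an actin-binding coronin gene, was read in 11 of 27 P2- CMPs (40.7%, 22.4–61.2%) and 37 of 42 P2+ CMPs (88.1%, 74.4–96.02%), with a ratio of 1.61 (1.43 to 1.79). Bcl2l1, which protects cells from apoptosis, was read in 12 and 36 cells, at 44.997 and 89.9 CPM. Ndn, an imprinted growth suppressor gene, was read in 4 and 23 cells (1.27, 1.11 to 1.43). Rbl1, the gene of the cell cycle inhibitor p107, was read in 9 and 32 cells, with a ratio of 0.86 (0.74 to 0.99).

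Named in the same way in the other direction, with the largest difference in share, was Cyld, a deubiquitinase gene that limits NF-kappaB signalling. Cyld was read in 19 of 27 (70.4%, 49.8–86.2%) and 8 of 42 cells (19.05%, 8.60–34.1%), at 63.5 and 15.96 CPM (-1.99, -2.14 to -1.85). Before thinning these were 22 and 13 cells. Ddx55, a helicase gene, was read in 19 and 13 cells (-1.81), Clk2, a kinase gene of splicing, in 19 and 12 (-1.24), and Trim56, a ubiquitin ligase gene of antiviral defence, in 15 and 8 (-2.10).

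The same contrast in MEPs, which share no cells with the CMPs, is set beside these results. Of the genes lower in P2+ CMPs 178 were also counted in MEPs, where 93 were lower and 85 higher in P2+ cells, with a median log2 ratio of -0.01. Of the genes higher in P2+ CMPs 156 were counted in MEPs, where 93 (59.6%) were higher, with a median of 0.16. Over all 7727 genes counted in both, 50.6% were higher in P2+ MEPs and the median was 0.01. Past the fold in MEPs were 19 higher and 11 lower of the 156, and 7 higher and 6 lower of the 178. Of all 7727 genes 4.94% were past it higher and 1.75% lower, against 12.2% and 7.05% of the 156 and 3.93% and 3.37% of the 178.

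Single genes differed in how they compared. Runx1 had a log2 ratio of 1.29 in MEPs and 1.12 in CMPs, and Cpox -1.38 and -1.42. Gng11 had 3.27 in MEPs against 1.69 in CMPs. Gata1 had -0.16 in MEPs and Steap3 -0.01, near 0, while both were past the fold in CMPs. Gata2 was at 35.2 and 212.1 CPM in MEPs, a ratio of 2.59 against -0.77 in CMPs. The difference between the contrasts was not tested, since each population is 1 sample.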

How the data were processed

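Single cells were sorted into plates, and libraries were made by a modified Smart-Seq2 protocol without molecular identifiers, so PCR copies are counted as reads. Per the labels and the study's methods, the authors trimmed reads (Trimmomatic 0.36), aligned them to GRCm38 with ERCC sequences (STAR 2.4.2a) and counted them per gene (HTSeq 0.6.1p1) with annotation M12. They deposited raw counts for 49585 mouse and 92 ERCC features, and a table of cells with read totals as counts and unmapped reads as percent. HTSeq left 26.0% of the uniquely mapped reads of CMPs unassigned as ambiguous and 7.19% as outside genes, and these entered no library size.

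Cells were kept with at least 250000 reads, at most 25% unmapped and at most 15% ERCC reads. CMP_low and CMP_high were taken to mean P2- and P2+, the only CMPs that the article describes as sequenced. No cells had identical counts (0), and no doublet caller was run on cells sorted singly. Counts were summed per population. Intervals are exact Poisson for CPM, exact conditional binomial for log2 ratios and Clopper-Pearson for shares (scipy 1.17.1), and cover counting error only. A population at 0 was set to 3 reads. Named genes come from 22 lists (429 genes, 1 not found), the 15 highest and 15 lowest ratios past the fold with 20 CPM or more, and the 10 largest differences in share each way. Cells, lists and comparisons were chosen with earlier results of these data known. Some list genes are not reported here. The marker sums leave them out, and correlations with the megakaryocyte set, which depend on them, are not given. Positions and exon overlaps come from GENCODE vM21 (GRCm38, bedtools 2.31.1), a later release, and promoters from RefSeq. Motif shares are void for genes past the fold, of which only 207 of 271 and 172 of 225 matched a promoter. Alternatives covered the scaling (DESeq2 1.42.0 size factors among them), the filter, the fold, the thinning depth and single cells left out. The contrast script was checked on simulated data.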

Additional observations from a re-analysis of the deposited data

Results flagged for a closer look

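Of the 59 named genes past the fold in CMPs 3 were past it in the opposite direction in MEPs. Among all genes counted in both, 11 of the 156 higher in P2+ CMPs were past the fold lower in P2+ MEPs (7.05%). Of the 178 lower in P2+ CMPs 7 were past it higher (3.93%). The 3 are therefore given as single genes, and no excess is claimed. The difference between the contrasts was not tested, because each population is 1 sample. Ube2cbp, a gene linked to ubiquitin transfer, had a log2 ratio (P2+ over P2-) of 3.27 in CMPs, with 2.45 and 23.6 CPM, and of -2.63 in MEPs, with 18.04 and 2.91 CPM. It was read in 4 of 27 and 13 of 42 CMPs, and in 18 of 56 and 3 of 47 MEPs. Fkbp9, a prolyl isomerase gene of the endoplasmic reticulum, had 2.28 in CMPs (1.57 with the same weight for every cell), with 7.04 and 34.2 CPM, and -1.74 in MEPs, with 20.2 and 6.02 CPM. Nr4a2, an immediate early nuclear receptor gene, had -1.65 in CMPs, with 14.6 and 4.65 CPM, and 2.49 in MEPs, with 2.65 and 14.8 CPM.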

How the results depend on the processing

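The number of genes past the fold depended on the limits. The number of genes higher in P2+ CMPs and the number of genes lower in P2+ CMPs were 1233 and 875 with no filter other than 10 summed reads, 34 and 46 with a pooled CPM of at least 50, 702 and 649 at a fold of 1.5, and 42 and 33 at a fold of 4. Without the requirement that the fold hold without the cell of highest CPM, a setting chosen after seeing the data, 394 genes were higher and 430 lower. Under the other scalings and without the P2- CMP with a conflicting label both numbers stayed within 1.5 times of those reported. They also did so without the cell of highest CPM and with every deposited CMP, but neither setting tests their stability. The fold already had to hold without the cell of highest CPM, and the CMP that the filters removed had very few mouse reads. All 59 named genes past the fold stayed past it under equal weight per cell, DESeq2 size factors and a denominator without mitochondrial genes and Rn18s-rs5. Of the single-gene ratios under the alternatives 1353 stayed within the counting interval and 519 left it, and 0 called ratios turned direction. The total of 1353 overstates stability. It includes all ratios with every deposited CMP and all with the denominator without mitochondrial genes and Rn18s-rs5, settings that could hardly move a ratio. Without the cell of highest CPM more ratios left the interval than stayed. With equal weight per cell or DESeq2 size factors nearly as many left it as stayed. The share of P2+ CMPs with a read left its interval in 3 cases and stayed in it in 21 when the thinning depth was changed. The median of 3 of 19 lists turned sign under an alternative: cytokine receptors (-0.02 to 0.03), fetal program genes (-0.18 to 0.02) and lymphoid genes (-0.02 to 0.48). Other medians kept their sign but moved by over 1.5 times under at least 1 alternative: heme (-0.37 to -0.18), iron (-0.28 to -0.13), membrane (0.01 to 0.07), megakaryocyte (0.10 to 0.36), stem (0.17 to 0.39), sort and screen (0.04 to 0.20), RUNX family (0.09 to 0.19), DNA replication (0.13 to 0.27), mitosis (-0.18 to -0.06), cyclin (0.03 to 0.16) and immediate early genes (-0.33 to -0.07). Each population is 1 pool, so the spread between animals is unknown, and the lower-level genes rest on few cells.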
